A study of Homo sapiens with 6 samples.

Results

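Glutathione is the most abundant small thiol of the cell, and its genes were followed here through 34 listed members that import cystine, build and recycle glutathione, spend it on peroxides and reactive compounds, or export its conjugates. They are 34 of the 22465 genes that had a transcript cluster with 1 gene symbol. Where a gene had several such clusters, the one with the highest mean over the 6 arrays stood for it. The arrays carried RNA of AC16, a human myocardial cell line made by fusing adult ventricular cardiomyocytes with transformed fibroblasts. Of these, 3 arrays came from cells given PM2.5, fine airborne particles, at 50 µg/mL for 24 h, and 3 came from cells labelled control, whose handling the labels do not describe further. All 6 samples are of 1 cell line, the titles number biological replicates 1 to 3 in each group, and nothing says whether these were separate cultures, so the p-values measure only the spread between these samples, which may be technical.

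Glutathione is made in 2 steps, in which glutamate-cysteine ligase joins glutamate to cysteine and glutathione synthetase adds glycine. The supply of cysteine, brought in as cystine, often sets the pace. Peroxidases oxidise glutathione while reducing peroxides, glutathione reductase restores it with NADPH, and transferases couple it to electrophiles, which pumps then carry out of the cell. Several of these genes are textbook targets of the oxidant-sensing factor NRF2, which binds antioxidant response elements.

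The values are log2 expression as deposited, so a difference of 1 is nominally a doubling. Deposited values reached 19.93, and whether 1 unit matches a doubling of RNA was not tested. A level was not set against that of another gene because probes differ. The highest reading of any background probe set was 5.66, and genes that exceeded it on at least 3 arrays count as above background. By that measure 16 of the 34 members were above background, where 18.5% of all genes were. Another 15 stayed within background on every array, and GPX8, GSTM3 and HAGH exceeded it on 1 or 2 arrays. A reading within background does not show that a gene is silent. Among cell type markers, 1 of 13 measured cardiomyocyte genes (MYL2) and 4 of 9 measured fibroblast genes were above background. So were 2 of 4 smooth muscle, 2 of 5 epithelial (KRT8 and KRT18), 1 of 5 leukocyte (CD68) and 0 of 5 endothelial genes. The defining heart markers MYH6, MYH7, TNNI3 and GATA4 stayed within background on every array. By the mean of 8 spike-in control probe sets the arrays fell into 2 sets, a low one at 10.2 to 10.3 (PM2.5 replicates 2 and 3, control replicate 3) and a high one at 10.7 to 10.9 (PM2.5 replicate 1, control replicates 1 and 2). Genes moved with these sets, and values within each set are given below.

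After PM2.5, GPX1, the selenium-dependent peroxidase of the cytosol and mitochondria, averaged 1.50-fold above the controls if 1 unit is a doubling. Its groups did not overlap. GPX4 also had groups that did not overlap, by a smaller margin. These were 2 of 34 members without overlap, beside 5.31% of all genes in either direction and 1.95% in the higher direction, and the other 32 had PM2.5 and control values that overlapped. None of the 34 passed limma's test over all genes (lowest adjusted p = 1), where 0% of all genes were called, and 1 of the 34 had an unadjusted p under 0.05, where 2.11% of all genes did. Of the 34 members, 19 had a mean above and 15 a mean below that of the controls, with a median log2 change of 0.02, beside -0.0099 over all genes. Among the 16 above background the median was 0.05, beside 0.01 over the 4150 genes above background. In RNA of whole cultures, fewer cells expressing a gene and less of its RNA per cell cannot be told apart.

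**Figure D1:**
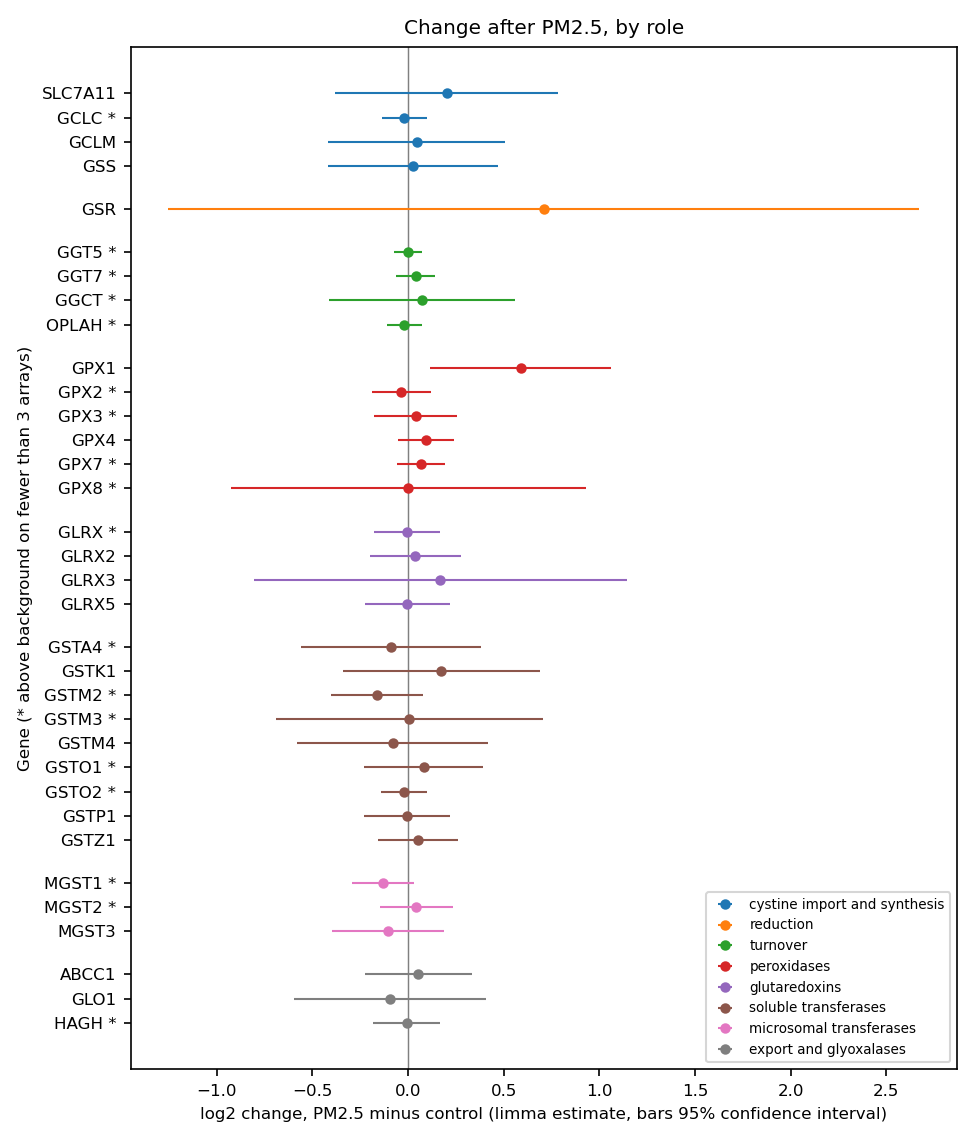
Log2 change (PM2.5 minus control, x axis) of each of the 34 genes (y axis), coloured by role, with bars for the limma 95% confidence interval from 3 arrays per group. GPX1 is the member whose interval, 0.11 to 1.06, lies off 0, and GSR has the widest interval.

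Among the peroxidases, GPX1 read 10.13, 9.93 and 9.71 on the PM2.5 arrays, against 9.23, 9.44 and 9.33 on the control arrays. The lowest PM2.5 value lay above the highest control value. The group means were 9.92 ± 0.21 after PM2.5 and 9.34 ± 0.11 in controls (SD, n = 3 each), a log2 change of 0.59 (SE 0.19, 95% confidence interval 0.11 to 1.06). It did not pass (limma, unadjusted p = 0.0229, adjusted p = 1). GPX1 was higher within both array sets, by 0.49 among the low spike-in arrays and by 0.79 among the high spike-in arrays, and its difference between the sets was small (low minus high -0.16, SE 0.15, limma adjusted p = 0.489). Blocking on the array set gave a change of 0.64 (95% confidence interval 0.27 to 1.01, limma adjusted p = 0.862). Leaving out each array in turn gave changes of 0.49 to 0.70. GPX1 and GPX4 were the 2 of 16 members above background without overlap. Beside them stand 3.28% of genes above background in either direction and 1.78% whose PM2.5 arrays all lay higher. The count includes GPX4, whose PM2.5 values were tied.

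GPX4 reduces lipid hydroperoxides inside membranes and is known as the guard against ferroptosis. It read 15.913 on all 3 PM2.5 arrays, against 15.722, 15.881 and 15.851 on the control arrays. The PM2.5 values were identical to the last deposited digit, and each lay above all 3 controls. A value shared by 3 or more arrays occurred in 1.04% of all genes and in 3.40% of genes above background, and in 2 of the 34 members, GPX4 and GSTP1. The log2 change of GPX4 was 0.10 (95% confidence interval -0.05 to 0.24, limma adjusted p = 1), and it was 0.48 after a further quantile normalization, in which its groups overlapped. It was 0.05 without control replicate 1, and it was 0.06 among the low and 0.11 among the high spike-in arrays. Apart from the value after quantile normalization, these changes set the controls against 1 tied PM2.5 reading. Neither the spread of GPX4 after PM2.5 nor the size of its difference was therefore measured.

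The other 4 peroxidases stayed near or within background. GPX8, an enzyme of the endoplasmic reticulum, read 4.79, 5.70 and 5.33 on the PM2.5 arrays, against 4.83, 4.96 and 6.03 on the control arrays. Its high readings came from the 3 low spike-in arrays, whichever the treatment. GPX7, also of the endoplasmic reticulum, differed by 0.07, GPX3, the secreted peroxidase of plasma, by 0.04 and GPX2, the peroxidase of gut epithelium, by -0.04, with overlapping groups and no reading above background.

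**Figure D2:**
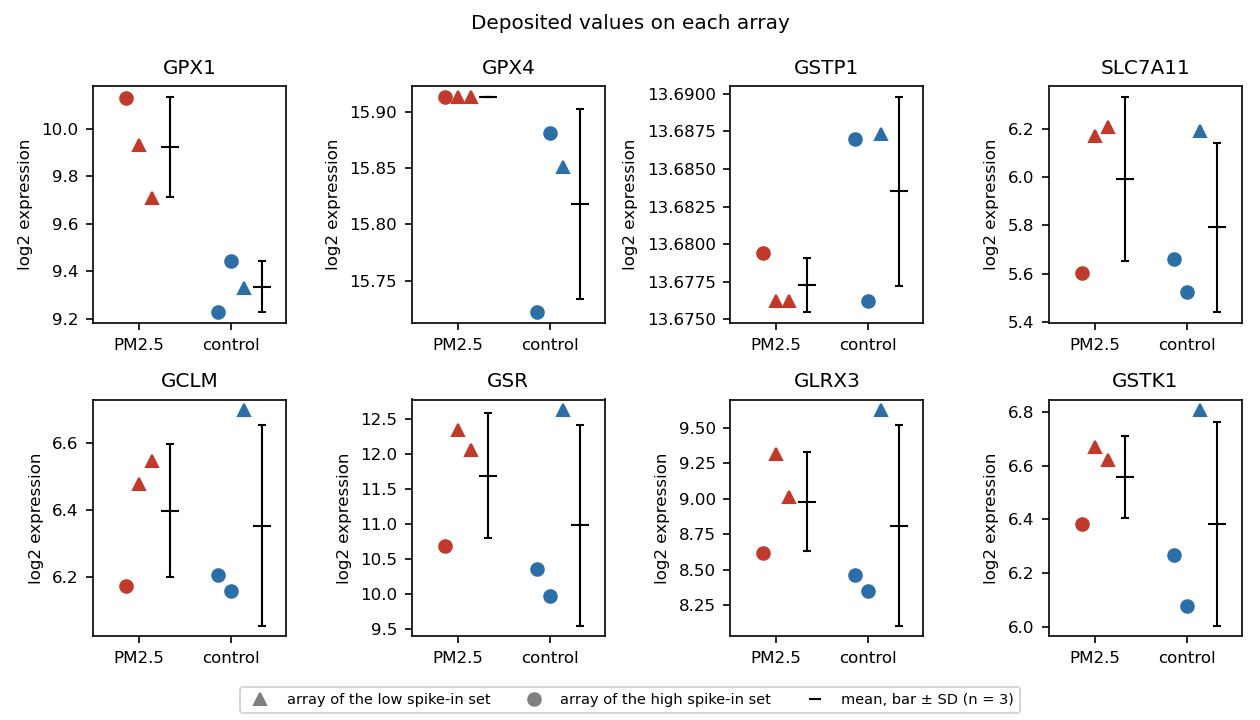
Deposited log2 expression (y axis, a separate scale for each gene) of 8 genes on the PM2.5 and control arrays, with the mean and SD of each group of 3 at the right of its points. GPX1 and GPX4 do not overlap between treatments, GPX4 with 1 tied value on all PM2.5 arrays, while SLC7A11, GCLM, GSR, GLRX3 and GSTK1 are highest on the 3 low spike-in arrays (triangles), and GSTP1 spans 13.676 to 13.687 in all.

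Cystine import and glutathione synthesis showed no separation by treatment. SLC7A11, the cystine and glutamate exchanger, read 5.60, 6.17 and 6.21 on the PM2.5 arrays, against 5.66, 5.53 and 6.19 on the control arrays. The 3 readings above 6 came from the low spike-in set. SLC7A11 exceeded background on 4 of the 6 arrays, and its readings of 5.60 and 5.53 lay within background. Its log2 change of 0.20 (95% confidence interval -0.38 to 0.78) was 0.07 without control replicate 2 and 0.40 without control replicate 3. It became 0.00 with the array set as a block (95% confidence interval -0.17 to 0.17, limma adjusted p = 1.00).

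The modifier subunit of glutamate-cysteine ligase, GCLM, read 6.17, 6.48 and 6.54 on the PM2.5 arrays, against 6.20, 6.16 and 6.70 on the control arrays. The highest reading was a control, and its log2 change was 0.04 (95% confidence interval -0.42 to 0.51). The catalytic subunit, GCLC, stayed within background at 4.32, 4.33 and 4.24 on the PM2.5 arrays, against 4.25, 4.37 and 4.32 on the control arrays. GSS, glutathione synthetase, read 7.97, 7.84 and 8.08 on the PM2.5 arrays, against 8.11, 7.67 and 8.03 on the control arrays. Neither GCLC nor GSS followed the treatment or the array set, and their log2 changes were -0.02 and 0.03.

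GSR, the reductase that turns oxidised glutathione back into its thiol form, had the largest log2 change of the members, 0.71, and also the widest interval (-1.25 to 2.67, limma adjusted p = 1). It read 10.68, 12.34 and 12.05 on the PM2.5 arrays, against 10.35, 9.97 and 12.62 on the control arrays. The highest reading of all was control replicate 3, and the groups overlapped. Within the low spike-in set GSR was lower after PM2.5, by -0.43, and within the high set it was higher, by 0.52. With the array set as a block its log2 change was 0.05 (95% confidence interval -0.61 to 0.70). Leaving out 1 array moved its change between 0.20 (without control replicate 2) and 1.53 (without control replicate 3).

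The 4 members that break glutathione down or recycle its parts lay within background on every array. GGCT, which cleaves gamma-glutamyl amino acids, read 4.72, 5.25 and 5.01 on the PM2.5 arrays, against 4.75, 4.72 and 5.29 on the control arrays. The log2 changes of GGT5, GGT7 and OPLAH, the oxoprolinase that returns glutamate, lay between -0.02 and 0.04.

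Of the glutaredoxins, which use glutathione to reduce protein disulfides or to handle iron-sulfur clusters, GLRX2, GLRX3 and GLRX5 were above background and GLRX was not. GLRX3, a cytosolic iron-handling member, read 8.62, 9.31 and 9.01 on the PM2.5 arrays, against 8.47, 8.35 and 9.63 on the control arrays. Its extremes were both controls, and its log2 change was 0.17 (95% confidence interval -0.81 to 1.14). Leaving out 1 array moved it between -0.06 (without control replicate 2) and 0.57 (without control replicate 3). The mitochondrial members GLRX2 and GLRX5 had log2 changes of 0.04 and -0.0034.

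Among the soluble transferases, GSTP1, the pi-class enzyme, gave almost the same reading on every array, 13.679, 13.676 and 13.676 with PM2.5, against 13.687, 13.676 and 13.687 in controls. PM2.5 replicates 2 and 3 and control replicate 2 shared 1 value exactly, so changes of GSTP1 may have gone unmeasured. Its log2 change was -0.0062 as deposited and 0.31 after a further quantile normalization. GSTK1, a mitochondrial and peroxisomal enzyme, read 6.38, 6.67 and 6.62 on the PM2.5 arrays, against 6.27, 6.08 and 6.81 on the control arrays. Its log2 change of 0.17 (95% confidence interval -0.34 to 0.69) was -0.16 within the low and 0.21 within the high spike-in set, and 0.02 without control replicate 2 and 0.39 without control replicate 3.

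GSTM4 read 8.69, 8.69 and 8.34 on the PM2.5 arrays, against 8.67, 8.42 and 8.88 on the control arrays, and GSTZ1, an enzyme of tyrosine breakdown, had a log2 change of 0.05. The mu-class genes are close copies of one another, so their probes may share signal and each value is uncertain. GSTM2 (log2 change -0.16) and GSTA4, which acts on lipid aldehydes (-0.09), stayed within background, as did GSTO1 (0.08) and GSTO2 (-0.02), the omega-class members. GSTM3 read 4.78, 5.40 and 5.23 on the PM2.5 arrays, against 4.81, 4.87 and 5.72 on the control arrays, again highest in the low spike-in set.

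The microsomal transferases are membrane enzymes, and MGST3 was the member above background. It read 6.99, 6.77 and 6.85 on the PM2.5 arrays, against 7.06, 6.92 and 6.95 on the control arrays, with overlap at PM2.5 replicate 1 and a log2 change of -0.11 (95% confidence interval -0.40 to 0.19). A further transcript cluster of MGST3 read 5.48, 5.74 and 5.67 on the PM2.5 arrays, against 5.48, 5.51 and 5.63 on the control arrays, a difference of 0.09 in the other direction. This further cluster exceeded background only on PM2.5 replicates 2 and 3, and it read highest on the low spike-in arrays. The clusters of this gene differed in sign, and whether that goes with the array sets was not tested. MGST1 differed by -0.13 (95% confidence interval -0.29 to 0.03) and MGST2 by 0.04, both within background.

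ABCC1, the pump for glutathione conjugates, read 6.17, 6.29 and 6.26 on the PM2.5 arrays, against 6.16, 6.04 and 6.36 on the control arrays. The control values enclosed the PM2.5 values, and the log2 change was 0.05 (95% confidence interval -0.23 to 0.33). GLO1, which with glutathione disposes of methylglyoxal, read 5.59, 6.12 and 5.71 on the PM2.5 arrays, against 5.74, 5.71 and 6.25 on the control arrays. Its partner HAGH had a log2 change of -0.0062.

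The difference between the array sets was larger in size than that between treatments for 25 of 34 members, beside 16898 of 22465 genes. Of the 34 members, 6 differed between the sets in limma with the treatment as a covariate, all higher in the low spike-in set, where 8.06% of all genes differed and 5.40% were higher. They were GSR (low minus high 1.99, SE 0.26, limma adjusted p = 0.0275), GPX8 (0.93), GSTM3 (0.71), SLC7A11 (0.59, SE 0.07, limma adjusted p = 0.0234), GGCT (0.48) and GCLM (0.43). GSR averaged 12.34 on the low and 10.33 on the high spike-in arrays. Among the members above background 3 of 16 were higher in the low set, beside 20.4% of the genes above background, so this share was near that of other genes. The sets were drawn after the control probe sets were seen, and the count fell to 0 without PM2.5 replicate 1, PM2.5 replicate 2, control replicate 1 or control replicate 3 and to 2 without control replicate 2. The low set holds 2 PM2.5 arrays and 1 control. With the block the log2 change was -0.12 for GLRX3 and 0.02 for GSTK1.

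**Figure D3:**
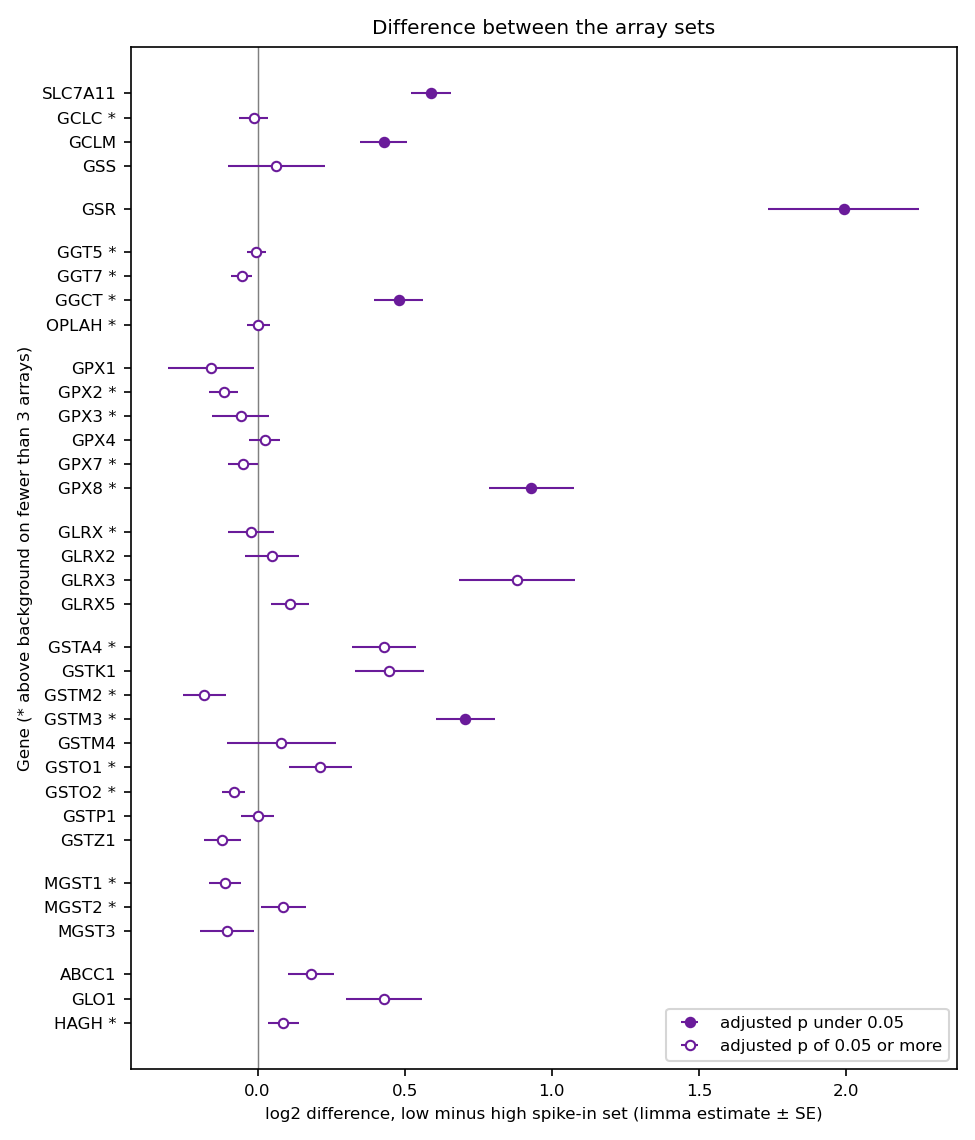
Log2 difference between the array sets (low minus high spike-in set, x axis, limma estimate with SE bars) for each gene, with filled points for an adjusted p under 0.05. GSR stands out at 1.99, and GPX1 lies at -0.16.

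Within the sets, where 1 array of one treatment stands against 2 of the other and no error can be given, 8 of 34 members were higher after PM2.5 among the low spike-in arrays (beside 50.3% of all genes) and 22 of 34 among the high spike-in arrays (beside 45.7%). Of the 16 members above background 3 were higher in the low set (beside 25.8% of genes above background) and 13 in the high set (beside 54.9%). The median log2 change of the 34 members was -0.06 in the low and 0.0079 in the high set, beside 0.00060 and -0.0081 over all genes. For the 16 above background it was -0.10 and 0.08, beside -0.12 and 0.02 over genes above background. The direction was the same in both sets for 18 of 34 members, beside 48.5% of all genes. Among members above background it was the same for 6 of 16, beside 2042 of the 4150 genes above background. The 7 of 34 members that were higher in both were GPX1, GPX3, GPX4, GPX7, GGT7, GLRX and GSTZ1, beside 5012 of the 22465 genes. Of these, 3 (GPX1, GPX4 and GSTZ1) were above background. Apart from GPX1 the within-set differences of these 7 were at most 0.11. More members, 11, were lower in both, beside 5828 of the 22465 genes. They were GCLM, GSTP1 and GLO1, which were above background, and GGCT, OPLAH, GPX8, GSTA4, GSTM2, GSTM3, MGST1 and HAGH.

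**Figure D4:**
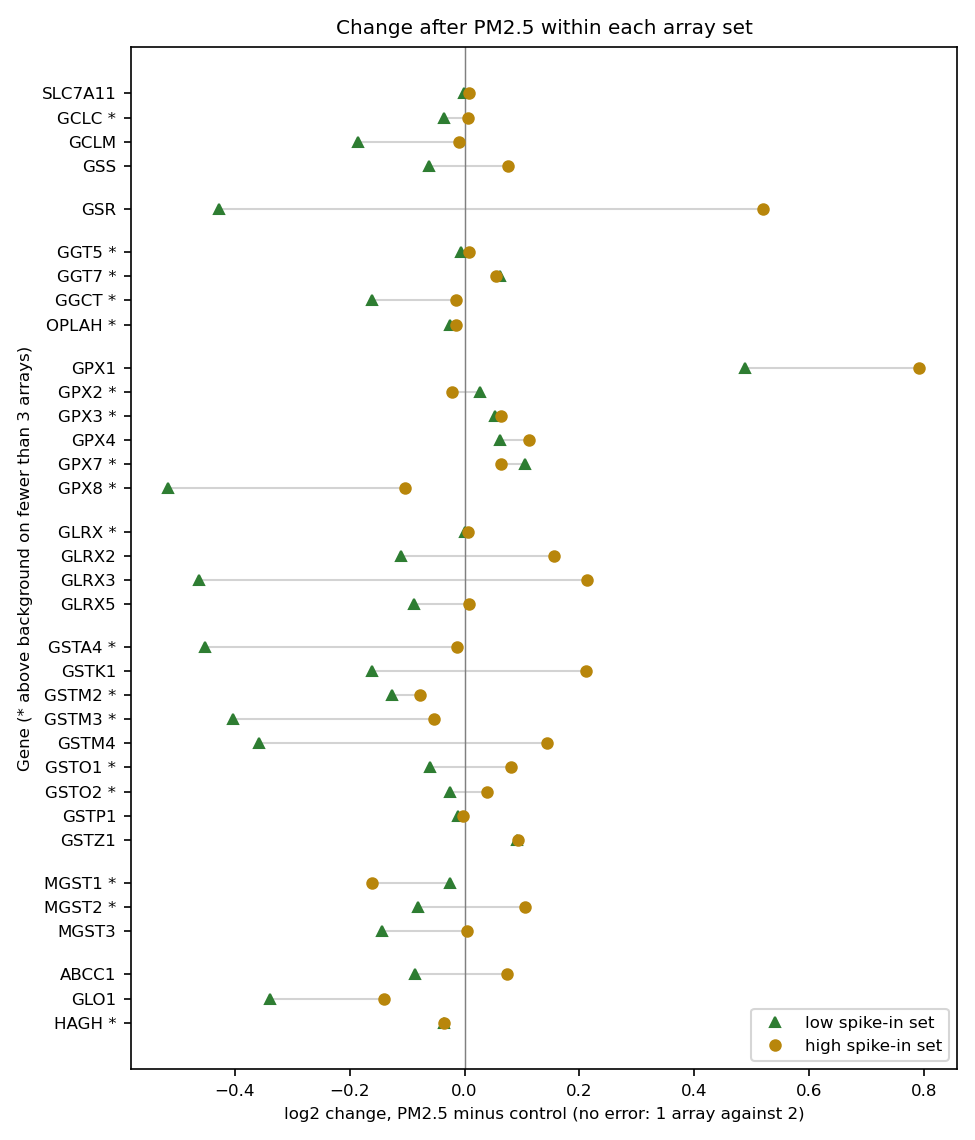
Log2 change (PM2.5 minus control, x axis) of each gene computed within the low spike-in arrays (triangles) and within the high spike-in arrays (circles), without error because 1 array stands against 2. GPX1 lies at 0.49 and 0.79, and GSR lies on both sides of 0.

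Further genes of glutathione turnover, transfer and NADPH supply, listed with earlier results known, were read beside the members. Of 42 listed, 32 were measured and 11 were above background. In limma 0 were higher and 0 were lower after PM2.5 (beside 0% of all genes), 0 had an unadjusted p under 0.05 (beside 2.11%) and 0 had groups that did not overlap (beside 5.31%), so these counts were near those of other genes. Their median log2 change was -0.0054. ME1, malic enzyme, a source of NADPH, read 7.45, 9.34 and 8.93 on the PM2.5 arrays, against 7.81, 7.46 and 9.72 on the control arrays. TXNRD1, thioredoxin reductase, read 6.71, 7.80 and 7.58 on the PM2.5 arrays, against 6.82, 6.76 and 7.94 on the control arrays. Both were highest on the low spike-in arrays, as GSR and SLC7A11 were. The log2 changes were 0.25 for ME1, 0.19 for TXNRD1, 0.18 for PGD of the pentose phosphate pathway, 0.08 for CHAC1, which degrades glutathione, 0.05 for SLC3A2, the heavy chain that carries SLC7A11 to the membrane, and -0.09 for GGTLC2. ME1 and TXNRD1 changed sign with the array set as a block, to -0.38 and -0.16. Within the low and the high spike-in arrays ME1 differed by -0.58 and -0.18, and TXNRD1 by -0.24 and -0.09.

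Promoter letters were read from RefSeq (GRCh38.p14) for 25 of the 34 members, since antioxidant response elements are the sites through which NRF2 acts on this pathway. No entry was at hand for ABCC1, GGCT, GGT5, GLRX3, GSR, GSS, MGST2, OPLAH and SLC7A11. The 250 bases before each gene start were searched on both strands for the core TGACNNNGC, which overlaps the AP-1 site. Some genes have several promoters in the table. The core occurred in 5 of the 33 promoters of these members, beside 10.9% of all 34943 promoters of that length. Counted by gene, 5 of the 25 members had it in at least 1 promoter, beside 13.2% of all 27167 genes. The matches are shown in capitals with up to 20 bases on each side, in the direction of the gene, and those of GCLM and GPX2 read on the opposite strand.
GCLM, chr1:93909436-93909484, minus strand: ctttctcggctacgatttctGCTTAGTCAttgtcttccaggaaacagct
GPX2, chr14:64942839-64942887, minus strand: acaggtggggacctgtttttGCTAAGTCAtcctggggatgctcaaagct
GSTP1, chr11:67583726-67583774, plus strand: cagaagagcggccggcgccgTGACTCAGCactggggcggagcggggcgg
GSTO1, chr10:104254646-104254694, plus strand: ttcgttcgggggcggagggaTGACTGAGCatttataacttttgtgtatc
GSTO1, chr10:104254711-104254759, plus strand: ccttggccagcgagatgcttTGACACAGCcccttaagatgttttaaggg
GSTA4, chr6:52995285-52995313, minus strand: tctcacccagccgggaccgcTGACCTGGC
The core began 34 bases before the start in GCLM, 66 in GSTP1, 122 in GPX2, 226 and 161 in GSTO1 and 9 in GSTA4. A match describes letters and is no measured site. The log2 changes after PM2.5 of these 5 genes were 0.04 (GCLM), -0.04 (GPX2), -0.0062 (GSTP1), 0.08 (GSTO1) and -0.09 (GSTA4), and none had groups that did not overlap.

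The same 250 bases before the start of GPX1 held 0 matches to the core and 70.8% G and C. They are shown because GPX1 was the member with an unadjusted p under 0.05.
GPX1, chr3:49358354-49358603, minus strand: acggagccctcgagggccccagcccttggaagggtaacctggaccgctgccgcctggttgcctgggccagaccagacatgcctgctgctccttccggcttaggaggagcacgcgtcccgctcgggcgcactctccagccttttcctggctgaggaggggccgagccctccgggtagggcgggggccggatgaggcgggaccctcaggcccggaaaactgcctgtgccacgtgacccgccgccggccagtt
That these letters are absent from this window says nothing about more distant sites or other factors.

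The precision was set by 3 arrays per group. The half-width of the 95% confidence interval of a member's log2 change ran from 0.07 to 1.96 with a median of 0.24, and for members above background the median was 0.45. Differences smaller than these widths could not be told from 0 here, which does not show that the genes were unchanged. The intervals are not adjusted for the number of genes, so larger differences may not pass either. GPX1 did not pass with a log2 change of 0.59, though its interval lay off 0.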

How the data were processed

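RNA of 6 AC16 samples was hybridised to Affymetrix arrays. The authors deposited log2 values, which the submitters' processing notes ascribe to RMA; the software version and genome build are not given in the sources used here. No total count exists for arrays, so their number limits precision. Of 67528 transcript clusters, 23781 had 1 symbol in the platform annotation and 1543 had several and were left out; the rest were unnamed. For 479 genes the cluster with the highest mean was used.

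All 22465 genes were fitted with limma 3.58.1 in R 4.3.3 (lmFit, eBayes with trend; two-sided tests at 0.05 after Benjamini-Hochberg adjustment over all genes), without block or filter. Every member is named. Arrays were given in full for members whose groups did not overlap, those with the largest changes above background, those with repeated values and fixed pathway genes, and for GPX8, GSTM3, GSTM4, GGCT and GLO1 after their values were seen. Of the further glutathione genes, the 6 with the largest changes above background are named. Members, lists and alternatives were chosen with earlier results of these data known. Alternatives were replicate and array-set blocks, centring, quantile normalization, no trend, filters on dim genes, cluster means and leaving out each array. Same-numbered arrays deviated together for numbers 1 and 3 (r = 0.78 and 0.77 over genes above background) but not for 2 (r = -0.65). Arrays of different number did so as well. PM2.5 replicate 1 went with control replicate 2 (r = 0.83), and PM2.5 replicate 2 with control replicate 3 (r = 0.79). The positive values were those between arrays of the same spike-in set, so numbers were not taken as pairs.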

Additional observations from a re-analysis of the deposited data

How the results depend on the processing

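No member passed limma's test under any of the 14 refits, with adjusted p values of at least 0.537 for every member. With the replicate number as a replicate block, 0 members passed and the median log2 change stayed at 0.02. The median of the members ran from -0.06 to 0.06 under the alternatives, always moving by less than the spread of that median between arrays (SD 0.20). That bound is wide beside a change of 0.02, so staying within it says little. The sign of the median was negative with the array set as a block (-0.0033), within the low spike-in set (-0.06), and without control replicate 1 (-0.0048) or control replicate 2 (-0.02). Members whose groups did not overlap numbered 2 as deposited and 4 after centring (GPX1, GPX4, GGT7 and GPX7) and 4 after a further quantile normalization (GPX1, ABCC1, GGT7 and GPX7), beside 5.31%, 6.94% and 7.24% of all genes. Leaving out 1 array gave 2 to 8. There were 5 without PM2.5 replicate 1 (beside 15.3% of all genes), 5 without control replicate 2 (12.2%) and 8 without control replicate 3 (28.4%). A smaller group overlaps less by construction, which holds for each of these runs alike, while their shares over all genes ran from 9.82% to 28.4%. Without control replicate 3 only controls of the high spike-in set remained, and GSR, GLRX3 and GSTK1 were among the 8. Why the share was highest in that run was not tested. The count of members that differed between the array sets ran from 0 to 6 when 1 array was left out and from 5 to 7 otherwise, with alternatives added after the data were seen. The log2 changes of 7 members kept their sign under every alternative run for them, GPX1 (0.49 to 0.79), GPX4, GPX7, GGT7, GSTZ1, GSTM2 and MGST1. Of these, GPX7, GGT7, GSTM2 and MGST1 lay within background on every array, and GPX4 had 1 tied PM2.5 value. The same count over all genes is not given here, so the 7 cannot be set beside it. Over all 34 members the sign changed in 44 of 204 values with 1 array left out, in 26 of 68 within the sets and in 23 of 249 under the other settings. The cause of the other changes was not tested.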
